A study of Mus musculus with 32 samples.

Results

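The genes described here are 10 transcripts made by the growing mouse oocyte, among them genes of its coat, its secretions and its meiotic arrest: Gdf9, Zp1, Zp2, Zp3, Oosp1, Mos, H1foo, Figla, Oog1 and Astl. They were chosen by name, and all 10 were found among the 55385 genes that each library lists, by matching the gene identifiers to the symbols of the GENCODE M21 annotation of GRCm38. They lie at chr11:53431023-53437904 (Gdf9, plus strand), chr19:10914287-10920632 (Zp1, minus), chr7:120126772-120145291 (Zp2, minus), chr5:135980099-135988624 (Zp3, plus), chr19:11667460-11691150 (Oosp1, minus), chr4:3870657-3872105 (Mos, minus, a single exon), chr6:115944938-115950236 (H1foo, plus), chr6:86016171-86020996 (Figla, plus), chr12:87602688-87608850 (Oog1, plus) and chr2:127338639-127357651 (Astl, plus), and the counts are over their exons. No other annotated gene overlapped any of them. Oog1 was the sole member for which the authors' software had to divide reads between similar loci, and the uncertainty this left was at most 1.32% of its count in any library.

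The zona pellucida is the glycoprotein coat of the egg, built by the oocyte from Zp1, Zp2 and Zp3, the last of which is also known as a partner of sperm. Figla, a transcription factor of the basic helix-loop-helix class, is known as an activator of the zona genes. Gdf9 and Oosp1 are secreted by the oocyte, Gdf9 being a growth factor for the follicle cells around it. Astl encodes ovastacin, the cortical granule protease that cuts Zp2 after fertilization. Mos is the kinase that keeps the egg arrested in metaphase through the MAP kinase pathway, H1foo is the linker histone of the oocyte, and Oog1 belongs to the Pramel family of oocyte genes. Such transcripts are inherited from the egg, and many are removed while the embryo starts its own transcription.

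The embryos came from in vitro fertilization of B6D2F1/J eggs with B6D2F1/J sperm, from parents of 6 to 8 weeks with no engineered allele, and carried no transgene. Total RNA was sequenced in 16 libraries of 8 groups, 2 libraries a group. In the set here called the A-485 experiment, embryos were kept in 10 µM A-485 or in DMSO alone. The exposure ran from 4 to 20 h post in vitro fertilization (hpi), and A-485 blocks the acetyltransferase activity of CBP and p300. These embryos were taken as zygotes or at the early or late 2-cell stage. The labels do not say that the stages were cultured or sequenced together, so a difference between stages can include a batch difference. The zygotes were taken before the early 2-cell embryos and so before the window of 4 to 20 hpi closed, at an hour that the labels do not give. Further late 2-cell embryos were cultured from 8 to 28 hpi in 50 nM TSA, an inhibitor of zinc-dependent histone deacetylases, or in DMSO. A-485 was washed out at 20 hpi, so the late 2-cell embryos of that experiment were collected after the drug had been removed. The study sequenced these embryos to look into why development stops after either inhibitor. Nothing in the labels says that the 2 libraries of a group came from separate cultures, so the p-values measure the spread between these libraries, which may be technical.

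The libraries held 13206163 to 32585987 expected counts each, and the 10 transcripts took 0.092% to 0.238% of them. The 4 egg markers Nlrp5, Ooep, Zar1 and Npm2 summed to 1370 to 1466 FPKM (fragments per kilobase of transcript, scaled to library depth) in the zygote libraries and to 142 to 198 FPKM at the late 2-cell stage. The 12 cumulus and granulosa markers, the other cells that share a follicle with the egg, summed to 1.07 to 3.78 FPKM in every library, with Hsd3b1 at 0 in each group. That sum was 3.64 to 3.78 FPKM in late 2-cell A-485 libraries beside 1.24 to 1.25 in their controls, with Fshr, Amh and Hsd3b1 at 0 and 2 of the 12 at a mean of 1 FPKM or more, and its part in the results was not tested. Sperm markers (6 genes) summed to 1.25 to 18.9 FPKM with the top in DMSO zygotes, where Prm1, Tnp1, Tnp2 and Akap4 were at 0. In zygotes 1 of the 6 had a mean of 1 FPKM or more. Erythroid markers (5 genes) summed to at most 4.71 FPKM except with TSA, where they summed to 44.6 and 46.8 with Hbb-bs and Hbb-bt at 0. The 13 mRNAs encoded in mitochondria took 0.79% to 1.06% of the counts in zygotes, 3.66% and 3.72% with TSA, 5.43% and 5.35% in late 2-cell A-485 embryos, and 2.24% to 2.71% in the other 2-cell libraries. That share moves with stage and treatment, so every comparison was also fitted on a scale that holds the summed mitochondrial mRNA constant, and its values are given where it turned a printed direction or changed a call. In bulk libraries, fewer cells that hold a transcript and less of it in each cell cannot be told apart.

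RefSeq promoters were available for 6 of the 10 genes (GRCm38.p6, H1foo under its newer symbol H1f8), and 4 of them are printed because their RNA took different courses below. Gdf9, Zp1, Zp2 and Mos had no entry. Figla binds DNA at E-boxes, which read CANNTG, and the capitals mark the form CAGGTG, or CACCTG where it lies on the other strand. Each line gives the 250 bases before the start site, 5′ to 3′ on the strand of the gene. The windows lie at chr5:135979855-135980104 (plus strand, Zp3), chr6:115944681-115944930 (plus, H1foo), chr19:11691052-11691301 (minus, Oosp1) and chr12:87602415-87602664 (plus, Oog1).
Zp3: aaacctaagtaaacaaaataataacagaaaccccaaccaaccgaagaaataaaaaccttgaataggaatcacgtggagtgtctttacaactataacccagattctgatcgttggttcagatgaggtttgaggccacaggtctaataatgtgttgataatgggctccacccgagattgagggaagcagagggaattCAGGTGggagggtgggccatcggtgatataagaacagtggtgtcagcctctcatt
H1foo: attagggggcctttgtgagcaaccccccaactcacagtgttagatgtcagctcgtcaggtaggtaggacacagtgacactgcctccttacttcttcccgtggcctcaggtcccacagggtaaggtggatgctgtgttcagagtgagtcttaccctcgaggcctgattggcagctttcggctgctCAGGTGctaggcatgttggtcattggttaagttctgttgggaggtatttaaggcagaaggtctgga
Oosp1: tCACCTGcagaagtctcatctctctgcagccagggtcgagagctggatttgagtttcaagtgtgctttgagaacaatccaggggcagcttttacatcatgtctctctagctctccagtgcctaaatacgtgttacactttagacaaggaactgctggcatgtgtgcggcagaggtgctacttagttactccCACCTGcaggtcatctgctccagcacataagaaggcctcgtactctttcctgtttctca
Oog1: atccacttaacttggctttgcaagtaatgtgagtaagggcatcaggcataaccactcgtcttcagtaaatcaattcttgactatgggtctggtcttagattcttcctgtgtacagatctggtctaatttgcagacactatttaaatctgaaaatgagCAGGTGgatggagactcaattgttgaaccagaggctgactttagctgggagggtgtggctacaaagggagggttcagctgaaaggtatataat
CAGGTG or CACCTG was found in the 250 bases of all 6 genes with an entry, against 19.4% of 27025 genes with RefSeq promoters. By windows, since a gene can have several start sites, it was in 6 of 7, against 17.2% of 32851. The copies stood 55 bases before the start in Zp3, 66 in H1foo, 93 in Oog1, 173 in Figla, 59 and 249 in Oosp1, and 59, 83 and 109 before one start of Astl. The wider CANNTG, which includes CAGGTG, was in all 6 genes and in 69.3% of all genes. The motif was picked after these sequences had been seen, so the shares are a description with no test.

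In DMSO-treated zygotes the levels per transcript length spanned 2 orders of magnitude. Oosp1 stood first at a mean of 737.5 FPKM, followed by Oog1 at 601.0, H1foo at 320.5 and Gdf9 at 217.4. The coat proteins ranked below them, with Zp2 at 66.9 FPKM, Zp3 at 25.02 and Zp1 at 12, and the coat-cutting protease Astl lay between the last pair at 14.7. Figla, at 11.9 FPKM, overlapped Zp1 between libraries, and Mos was last at 7.14 FPKM. Every other neighbouring pair in this order was separated in both libraries. The effective length that the authors' software assigned to a gene differed between libraries, by as much as 187.9 to 615.0 bases for Figla, and FPKM carry that difference. The members' values by library below are therefore counts scaled to library depth (CPM) by TMM (trimmed mean of M-values) over all 16 libraries, compared within a gene.

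Without inhibitor, 6 of the 10 transcripts fell by at least 2-fold between the zygote and the early 2-cell embryo: Gdf9, Zp3, Mos, H1foo, Figla and Astl. A call needed an edgeR adjusted p under 0.05, a 2-fold change and a mean of 1 FPKM in either group. In this comparison 14.9% of all 20106 genes tested were called lower and 11.2% higher, and 29.8% of those with at least 5 FPKM in zygotes were called lower. The median log2 change of the 10 genes was -1.14, and that of all genes tested was 0.08. Gdf9 went from 348.4 and 311.2 scaled CPM in the zygote libraries to 152.4 and 137.5, which left 43.4% of its zygote level (95% interval 38.0 to 49.7; edgeR adjusted p = 1.425e-07). Both early libraries lay below both zygote libraries, as they did for the other 5 called genes, a separation that 36% of all genes showed in this direction. Mos went from 9.88 and 7.43 to 1.95 and 3.41 (log2 change -1.71, SE 0.34, edgeR adjusted p = 0.000891). Figla, already low, went from 6.74 and 6.15 to 1.17 and 1.80 (log2 change -2.13, SE 0.36, edgeR adjusted p = 0.000279). Among the 6, Figla kept the smallest share, 22.8% (13.2 to 39.5), and H1foo the largest, 47.7% (42.4 to 53.7), although these intervals are wide beside the gaps between most of the genes. H1foo was 281.4 and 286.7 in zygotes and 139.3 and 135.0 in early 2-cell libraries (log2 change -1.07, SE 0.08), and DESeq2 put it just short of 2-fold and did not call it.

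Of the 3 coat genes Zp3 was the one called. Zp2 went from 110.4 and 96.2 scaled CPM to 55.0 and 61.0, a fall that passed the adjusted p (2.498e-05, edgeR) and stopped short of 2-fold at 55.5% left. Zp1 went from 20.3 and 20.2 to 11.97 and 13.25, also short of 2-fold at 61.5% left (edgeR adjusted p = 0.0064). Zp3 went from 28.5 and 26.1 to 10.2 and 10.7, with 37.7% left (28.9 to 49.2). The 95% intervals of the share left overlapped for Zp3 and Zp2, and the difference between the genes was not tested.

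Oosp1 and Oog1, the leading members by level, held their place to the early 2-cell stage. Oosp1 measured 452.5 and 383.4 scaled CPM in zygotes and 463.4 and 507.1 in early 2-cell embryos (log2 change 0.20, 95% interval 0.01 to 0.39, edgeR adjusted p = 0.0812). Oog1 measured 972.9 and 918.1 and then 1017 and 1001 (log2 change 0.08, interval -0.06 to 0.21, adjusted p = 0.365). With mitochondrial mRNA held constant, Oosp1 and Oog1 turned to -1.12 and -1.25, and all 10 members were called lower, as were 8196 of the 20106 genes tested. The median of all genes tested moved from 0.08 to -1.24. Oosp1 and Oog1 thus lay within 0.2 of the median gene on either scale.

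**Figure D1:**
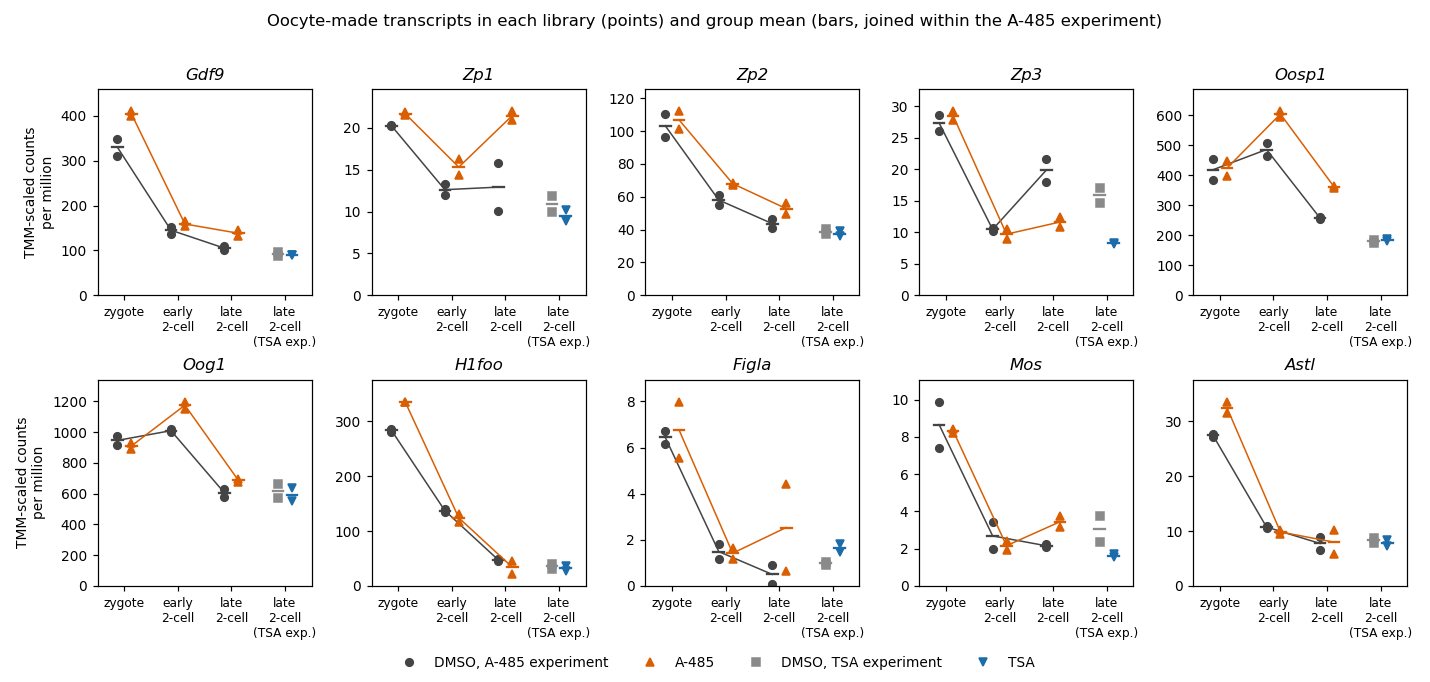
TMM-scaled CPM (vertical axes, 1 panel a gene, each starting at 0) in all 16 libraries by stage; points are libraries, short bars are group means, lines join the stages of the A-485 experiment. Gdf9, Zp2, H1foo and Astl step down from zygote to late 2-cell, Oosp1 and Oog1 stay level to early 2-cell on this scale (both fall when mitochondrial mRNA is held constant), and Zp3 drops to 10.2 and 10.7 and stands at 18.0 and 21.7 in late 2-cell DMSO libraries.

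From the early to the late 2-cell stage in DMSO, H1foo was the member called lower, from 139.3 and 135.0 to 45.6 and 48.7 scaled CPM (log2 change -1.54, SE 0.13, edgeR adjusted p = 1.948e-06), and 8.92% of all genes were. Oosp1 now fell, to 254.0 and 260.0 (log2 change -0.91, adjusted p = 1.402e-05), and so did Oog1, to 579.5 and 628.2 (log2 change -0.74, adjusted p = 3.76e-05), both short of 2-fold. Gdf9 reached 101.0 and 108.7, with a log2 change of -0.47 (edgeR adjusted p = 0.0108). Astl, at 6.56 and 8.89, and Mos, at 2.08 and 2.22, showed no detectable further step (adjusted p = 0.234 and 0.690). Figla reached counts of 2 and 17 in the late libraries, 0.09 and 0.90 scaled CPM, which is too few to place it well.

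Zp3 went the other way. It rose from 10.2 and 10.7 scaled CPM at the early 2-cell stage to 18.0 and 21.7 at the late 2-cell stage, both late libraries above both early ones (log2 change 0.93, SE 0.23, edgeR adjusted p = 0.00778). This is just under 2-fold, so it was not called, and without late 2-cell DMSO replicate 1 the change was 1.06 and was called. The late 2-cell DMSO libraries of the TSA experiment, at 17.0 and 14.7, also lay above the early ones, and set against the same early libraries they gave 0.62. The rise kept its direction with library totals (0.93) and with mitochondrial mRNA held constant (0.92). Among all genes 15.9% were called higher over this interval, and 34% had both late libraries above both early ones. The rise was not detected for the other coat genes. Zp1 stood at 10.1 and 15.8 in the late libraries, with a log2 change of 0.04 (interval -0.57 to 0.64), and Zp2 at 40.7 and 46.6, with -0.41 (-0.74 to -0.08).

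Over the whole span from zygote to late 2-cell, all 10 members were lower with an edgeR adjusted p under 0.05, and 6 were called at 2-fold: Gdf9, Zp2, Mos, H1foo, Figla and Astl. The background was 19.7% of all genes called lower, as many called higher, and 38.5% of those with at least 5 FPKM in zygotes. H1foo kept 16.02% of its zygote level (13.6 to 18.9), Mos 24.0%, Astl 27.1%, Gdf9 30.7% and Zp2 40.8%. Oosp1, Zp1, Oog1 and Zp3 kept more, at 59.4%, 61.4%, 61.6% and 69.9%. Figla kept 7.28%, with an interval from 2.54 to 20.8. With mitochondrial mRNA held constant all 10 were called lower, with 3.00% (Figla) to 28.4% (Zp3) left, and so were 7750 of the 20253 genes tested.

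**Figure D2:**
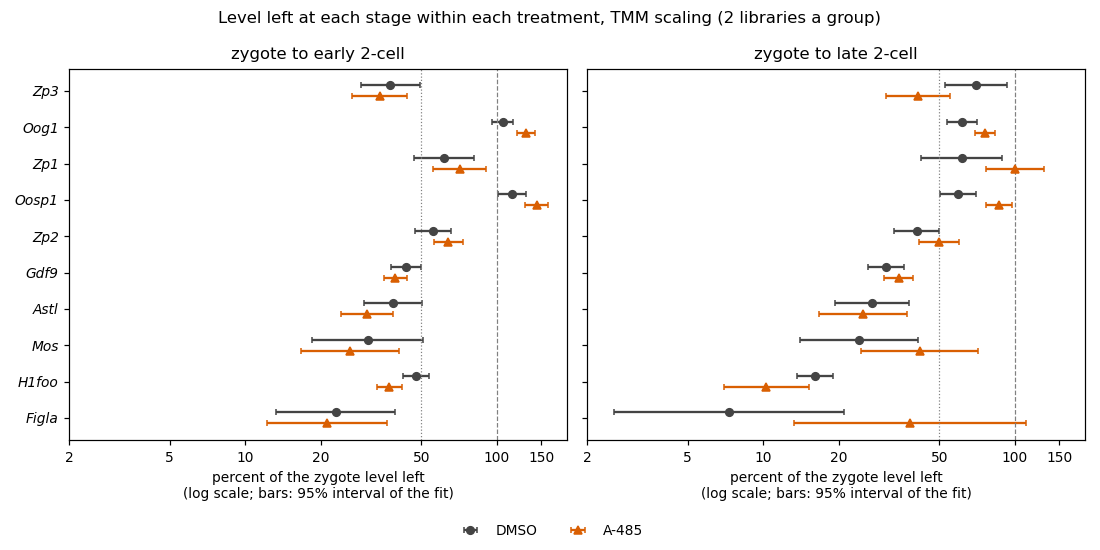
Share of the zygote level left (horizontal axis, percent, log scale) at the early 2-cell stage (left) and late 2-cell stage (right), in DMSO (grey circles) and after A-485 (orange triangles); bars are 95% intervals of the edgeR fit over 2 libraries a group, and dotted and dashed lines mark 50 and 100. At early 2-cell Oosp1 and Oog1 sit at or above 100 on this TMM scale, whereas at late 2-cell in DMSO every gene lies below it, from Figla at 7.28 to Zp3 at 69.9.

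From A-485 zygotes to A-485 early 2-cell embryos the same 6 genes were called lower as in DMSO, against 15.6% of all genes (6.85% higher) and 31.1% of those with at least 5 FPKM. Gdf9 kept 39.5%, Zp3 34.3%, Mos 26.1%, H1foo 37.3%, Figla 21.1% and Astl 30.4%. Oosp1 went from 448.5 and 397.8 to 593.9 and 613.2, a rise of 0.52 (SE 0.07, edgeR adjusted p = 3.275e-05), and Oog1 from 926.3 and 892.1 to 1197 and 1152, a rise of 0.38 (adjusted p = 8.23e-05), both under 2-fold and both reversed with mitochondrial mRNA held constant (-1.17 and -1.32).

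By the late 2-cell stage 6 members were again called lower than in A-485 zygotes, against 18.1% of all genes (19.6% higher) and 44.3% of those with at least 5 FPKM: Gdf9, Zp2, Zp3, Mos, H1foo and Astl. H1foo kept 10.3% (6.97 to 15.2), the smallest share of the 10 in these embryos, and Astl 24.8%. From early to late 2-cell H1foo was once more the member called (log2 change -1.91, SE 0.20), against 7.15% of all genes called lower and 12.8% higher, and Zp3 changed by 0.21 (interval -0.38 to 0.81) where it had risen by 0.93 in DMSO. Each step was fitted on its own 4 libraries. In a fit of all 8 libraries, with its own TMM scaling, the difference between the steps was -0.55 (interval -1.35 to 0.24, edgeR adjusted p = 0.364), so a different course of Zp3 with A-485 was not shown on this scale. On the mitochondrial scale the A-485 step was -0.70 and the difference was -1.62 and called (edgeR adjusted p = 0.00288). Zp1 stood at 22.0 and 20.9 scaled CPM, beside 21.9 and 21.5 in the A-485 zygotes, and so kept 99.95% (76.6 to 130.4). Mos kept 41.8% (24.4 to 71.5), and its call was lost without either zygote A-485 library (log2 -1.28 and -1.22), as was that of Zp2 in DESeq2 (-0.86), with library totals (-0.96) and without late 2-cell A-485 replicate 2 (-0.88) or zygote A-485 replicate 1 (-0.93). All 10 were called lower with mitochondrial mRNA held constant, with 1.63% (H1foo) to 15.8% (Zp1) left, and so were 10883 of the 22573 genes tested.

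Set against DMSO at the same stage, A-485 produced no call among the 10 genes at any of the 3 stages on the TMM scale. In zygotes 0.0657% of all genes were called lower and 0.00548% higher, and 3 members had an unadjusted p under 0.05. Both treated libraries lay above both controls for 15.4% of all genes. Gdf9 was 399.1 and 410.5 scaled CPM with A-485 beside 348.4 and 311.2 with DMSO, both treated libraries above both controls (log2 difference 0.30, interval 0.15 to 0.44, edgeR adjusted p = 0.299). H1foo was 335.9 and 334.8 beside 281.4 and 286.7 (0.24, interval 0.11 to 0.37, adjusted p = 0.446). On the mitochondrial scale these differences were 0.57 and 0.51, and none was called. DESeq2 also called none.

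At the early 2-cell stage, where 7.9% of all genes were called lower with A-485 and 0.402% higher, the members again lay close to their controls. Oosp1 passed the adjusted p with a small rise, 593.9 and 613.2 against 463.4 and 507.1 (log2 difference 0.25, interval 0.11 to 0.40, edgeR adjusted p = 0.029), which it did not with mitochondrial mRNA held constant (0.24, edgeR adjusted p = 0.391). In the same libraries 5 transcripts of the early 2-cell program (Zscan4c, Zscan4d, Zfp352, Duxf3 and Tdpoz4) summed to 286 to 325 FPKM with DMSO and to 5.56 to 7.70 with A-485. The intervals of the other members that bear on a 2-fold change were narrow for Gdf9 (-0.13 to 0.27), Zp2 (-0.07 to 0.41), H1foo (-0.41 to -0.002) and Oog1 (0.03 to 0.28), and reached beyond 2-fold for Mos and Figla. Unadjusted, 3 members had a p under 0.05, and DESeq2 called none.

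**Figure D3:**
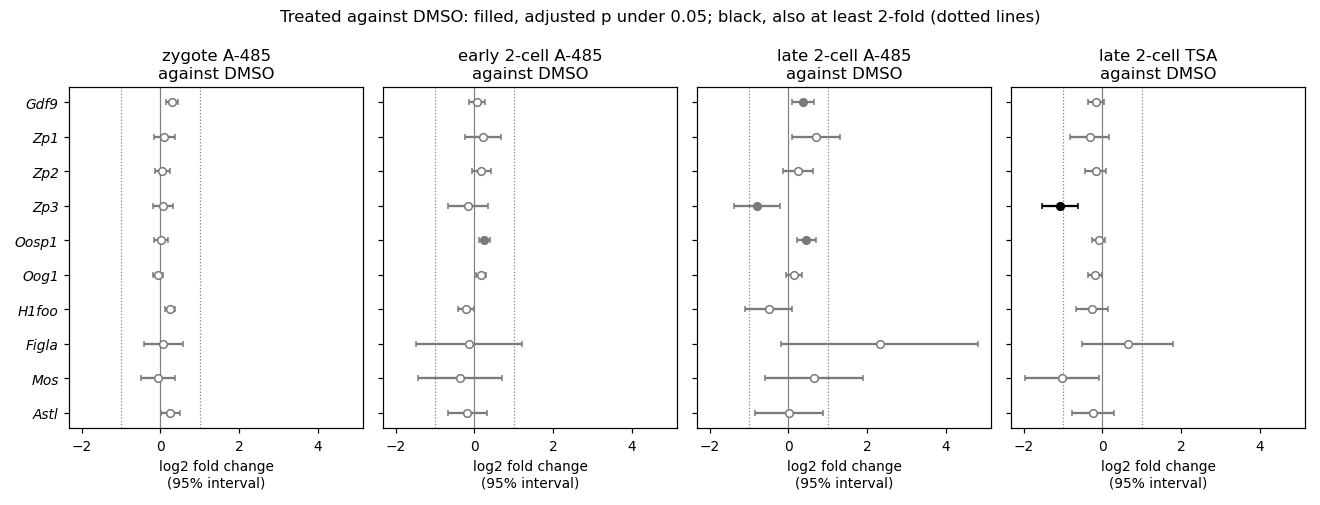
Log2 fold change of treated against DMSO embryos (horizontal axis, points, with 95% intervals of the edgeR fit) for each gene in 4 comparisons of 2 against 2 libraries; open points have an adjusted p of 0.05 or more, filled grey points pass it, the black point also passes 2-fold. Most points lie between the dotted 2-fold lines, Zp3 is lower with both drugs at late 2-cell (-0.81 and -1.08), Figla and Mos have wide intervals, and in late A-485 embryos every gene except Figla lies below 0 when mitochondrial mRNA is held constant.

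At the late 2-cell stage 16.8% of all genes were called lower and 10.5% higher after A-485, and among genes with at least 5 FPKM 41.3% were called lower. None of the 10 was called by edgeR or DESeq2, and 4 had an unadjusted p under 0.05. Zp3 was 12.5 and 10.8 scaled CPM after A-485 against 18.0 and 21.7, with no overlap (log2 difference -0.81, SE 0.27, interval -1.40 to -0.22, edgeR adjusted p = 0.0345). Both treated libraries lay below both controls for 31.4% of all genes. The Zp3 difference ranged from -0.91 to -0.65 without 1 library in turn. The adjusted p of Zp3 did not stay under 0.05 in every alternative fit. The treated level of Zp3 lay near the 10.2 and 10.7 of early 2-cell DMSO embryos. Oosp1 was higher, 365.1 and 358.0 against 254.0 and 260.0 (log2 difference 0.46, interval 0.23 to 0.69, edgeR adjusted p = 0.0047), and Gdf9 was 131.5 and 144.8 against 101.0 and 108.7 (0.36, interval 0.08 to 0.65, adjusted p = 0.0467). The adjusted p of Gdf9 also did not stay under 0.05 in every alternative fit. With mitochondrial mRNA held constant, Zp3 (-1.79) and H1foo (-1.48) were called lower, as were 6874 of the 22822 genes tested. On that scale Oosp1 and Gdf9 turned to -0.52 and -0.62, Figla alone stayed above 0, and the median of all genes tested moved from 0.28 to -0.69. The effect of A-485 differed from that in zygotes for Zp3, by -0.80 (SE 0.29, edgeR adjusted p = 0.0461), and for Oosp1, by 0.50 (SE 0.14, adjusted p = 0.00837), in a fit of all 8 libraries with its own scaling, and neither difference reached 2-fold. Neither difference kept an adjusted p under 0.05 in every alternative fit. On the mitochondrial scale these were -2.13, a call, and -0.81. In this contrast 12% of all genes were called lower and 9.31% higher, against 0 members. Between the early 2-cell stage and zygotes the effect was called different for 0 members and for 3.73% (lower) and 0.461% (higher) of genes, and between late and early 2-cell for 0 members and for 7.46% and 8.39%.

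The other members were not called after late A-485, and for some of them 1 library decided the size of the difference. Figla had 9 and 70 counts in the treated libraries and 2 and 17 in the controls, so that its log2 difference of 2.31 had an interval from -0.18 to 4.81. Leaving out late 2-cell A-485 replicate 1 made it 3.13 and a call, as did leaving out DMSO replicate 2 (4.66), whereas it was 1.49 without DMSO replicate 1 and 0.34 without A-485 replicate 2. Zp1 was 22.0 and 20.9 against 10.1 and 15.8 (0.70, interval 0.08 to 1.32, edgeR adjusted p = 0.073). Both treated libraries lay above both controls, as they did for 39.6% of all genes. The Zp1 difference was 1.07 without DMSO replicate 2 and 0.45 without DMSO replicate 1. H1foo was 22.5 and 45.7 against 45.6 and 48.7 (-0.51, adjusted p = 0.16), and was called lower at -1.08 without A-485 replicate 2 and stood at -0.08 without A-485 replicate 1. Zp2, Oog1 and Astl differed by 0.24, 0.15 and 0.01, with intervals of -0.15 to 0.63, -0.06 to 0.35 and -0.86 to 0.88.

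**Figure D4:**
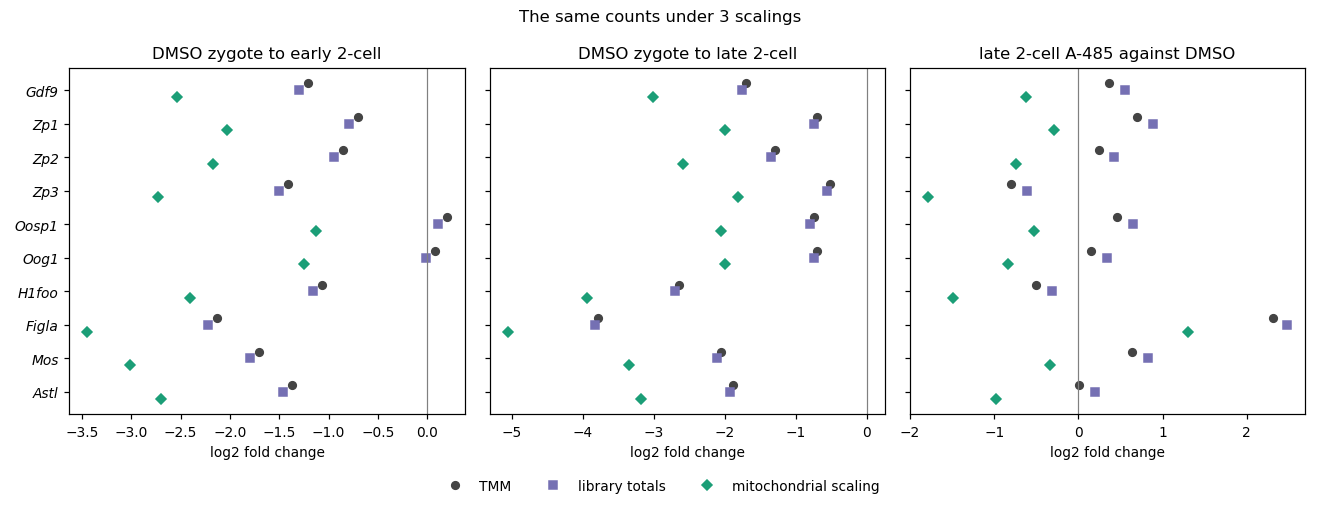
Log2 fold change of each gene (horizontal axes, not on a shared range) in 3 comparisons (DMSO zygote to early 2-cell, DMSO zygote to late 2-cell, and late 2-cell A-485 against DMSO) when the same counts are scaled by TMM (grey circles), by library totals (purple squares) or by the summed mitochondrial mRNA (green diamonds). In these 3, TMM and library totals lie closer together than either does to the mitochondrial scale, which shifts every gene down, which turns Oosp1 and Oog1 negative at early 2-cell and leaves Figla as the one positive gene after late A-485, while Zp3 is negative on all 3 scales.

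TSA gave 1 call, which was Zp3. Its level was 8.32 and 8.12 scaled CPM in TSA-treated late 2-cell embryos against 17.0 and 14.7 in the DMSO embryos of the same experiment, with no overlap (log2 difference -1.08, SE 0.21, interval -1.54 to -0.62, edgeR adjusted p = 0.00153). Both TSA libraries lay below both controls for 32.1% of all genes. Genes called lower made up 13.9% of all tested and 32.7% of those with at least 5 FPKM, and 13.8% were called higher. The fold lies at the threshold: the call was lost with library totals (-0.72), with all 16 libraries in 1 fit (-0.95) and without TSA-experiment DMSO replicate 1 (-0.96), and the direction held each time. Mos was 1.54 and 1.72 against 3.74 and 2.33 (-1.03, interval -1.97 to -0.09, edgeR adjusted p = 0.0733), and was called at -1.34 without TSA-experiment DMSO replicate 2, stood at -0.63 without replicate 1, and was called at -1.19 with mitochondrial mRNA held constant. The remaining 8 members had adjusted p from 0.0786 (Oog1, -0.19) to 0.462 (Astl), and Gdf9, at 90.3 and 90.1 against 87.3 and 96.2, could hardly be told from its control (-0.16, interval -0.36 to 0.05). Scaled within its own fit, Gdf9 was 87.8 and 88.8 with TSA against 94.7 and 102.1. On that scaling both TSA libraries lay below both controls, as for 32.1% of all genes.

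The DMSO embryos of the A-485 and TSA experiments, which are of the same named stage, show how far 2 sets of controls lay apart. None of the 10 was called between them, with 0.136% of genes called lower and 1.19% higher. Oosp1 was lower in the TSA experiment, 184.9 and 173.3 against 254.0 and 260.0 (log2 difference -0.54, SE 0.10, edgeR adjusted p = 0.0109), a gap of the size of its difference after A-485 (0.46). Zp3 differed by -0.34 (interval -0.78 to 0.10). The difference between the A-485 and TSA responses of Zp3 was -0.16 (interval -0.88 to 0.55, edgeR adjusted p = 0.857), and no member was called in that contrast, against 2.98% of genes lower and 11% higher. The difference was 0.54 with mitochondrial mRNA held constant. The interval does not show that the drugs act alike, and exposure times and controls differed.

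The neighbours of these genes in oocyte biology were listed with earlier results of these data known, and their counts are a description. They stand against the 14.9% of all genes called lower and 11.2% higher from zygote to early 2-cell in DMSO, 19.7% each way from zygote to late 2-cell, 16.8% lower and 10.5% higher after late A-485, and 13.9% lower and 13.8% higher after TSA. Of genes with at least 5 FPKM in zygotes, 29.8% and 38.5% were called lower over the first and the longer span. Of 8 other egg-surface and secreted genes, 5 were called lower from zygote to early 2-cell in DMSO (Oosp2, Izumo1r, Cd9, Gja4 and Plat) and 6 from zygote to late 2-cell (Bmp15, Oosp2, Oosp3, Izumo1r, Gja4 and Plat), with list medians of -1.54 and -2.15. Bmp15, the partner of Gdf9 and the highest of the list, was 1765 and 1523 scaled CPM in zygotes and 1623 and 1525 at early 2-cell (log2 change -0.08, and -1.41 with mitochondrial mRNA held constant), and then fell to 447.0 and 466.8. Late A-485 embryos had 1071 and 1116 of it, 1 of the 2 calls in the list (log2 difference 1.22, edgeR adjusted p = 4.808e-07), which was 0.24 with mitochondrial mRNA held constant. Oosp3, the next in level, rose from 195.2 and 172.8 to 282.6 and 279.0 (0.59, but -0.73 with mitochondrial mRNA held constant) and fell to 44.2 and 46.0, and its late A-485 difference was 0.32 (edgeR adjusted p = 0.145; -0.66 with mitochondrial mRNA held constant). The other call was Cd9, the egg membrane protein needed for fusion with sperm, which was singled out after its values had been seen. It fell from 33.0 and 24.7 in zygotes to 11.8 and 12.4 at early 2-cell and stood at 22.9 and 20.6 at late 2-cell, and was 3.71 and 4.18 after A-485 (log2 difference -2.50, edgeR adjusted p = 3.692e-05). After TSA it was 15.7 and 18.0 against 25.7 and 24.2 (-0.70, adjusted p = 0.00484).

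Of 8 factors that act with Figla in the oocyte, 3 were called lower from zygote to late 2-cell in DMSO (Nobox, Lhx8 and Sohlh2) and 1 higher (Taf4b). Nobox, a homeobox activator of oocyte genes and the highest of the list, went from 261.8 and 258.5 scaled CPM to 58.3 and 66.9 and then 15.02 and 17.62, and was 17.9 and 22.7 after late A-485 (0.28, edgeR adjusted p = 0.418; -0.70 with mitochondrial mRNA held constant). Lhx8 went from 95.2 and 93.0 to 47.9 and 51.9 and then 17.5 and 22.5. After late A-485 Taf4b was called lower, and after TSA Taf4b and Tcf12 were lower and Sohlh1 higher, the first pair not called with library totals (-0.81 and -0.79). Sohlh1 was low, at a mean of 0.49 scaled CPM in the controls of the TSA experiment and 2.89 with TSA.

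In the list of 8 MAP kinase and arrest genes around Mos, Mapk3 and Fbxo43 were called lower from zygote to late 2-cell and Map2k2 higher (2.17, and 0.86 with mitochondrial mRNA held constant). Fbxo43, which encodes Emi2, the inhibitor that keeps the anaphase-promoting complex off in the egg, was 233.3 and 236.1 scaled CPM in zygotes, 199.3 and 197.4 in early 2-cell embryos and 80.8 and 77.9 in late ones. Map2k1, the kinase below Mos, rose from 183.4 and 188.0 to 289.3 and 281.6 (0.60, but -0.73 with mitochondrial mRNA held constant) and then stood at 98.4 and 116.8. Late A-485 gave calls for Map2k2 (lower, -4.25) and Mapk3 (higher, 1.57, and 0.59 with mitochondrial mRNA held constant), and TSA for Map2k2 (lower, -1.31, and not called at -0.96 with library totals) and Rps6ka2 (higher, 3.42). Rps6ka2 was low in the controls of the TSA experiment, at a mean of 1.85 scaled CPM, and stood at 21.7 with TSA.

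Of 8 other linker histones, H1fx was called lower from zygote to late 2-cell, as H1foo was, and Hist1h1b and Hist1h1c higher, Hist1h1c being at 0.12 with mitochondrial mRNA held constant. Hist1h1a, the highest by FPKM, went from 606.9 and 601.5 scaled CPM to 1102 and 1030 and back to 604.3 and 647.1, and H1f0 from 78.0 and 79.8 to 123.8 and 131.7 and back to 73.0 and 83.7. With mitochondrial mRNA held constant the first step was negative for both, at -0.53 and -0.65. Hist1h1e and Hist1h1t were called higher after late A-485 (1.86 and 2.52, and not called at 0.87 and 1.52 with mitochondrial mRNA held constant) and after TSA, and Hist1h1b lower after TSA. Hist1h1t was low, at means of 0.56 and 0.94 scaled CPM in the late 2-cell controls of the A-485 and TSA experiments. On the TMM scale H1foo was called with neither drug, but with mitochondrial mRNA held constant it was called lower after late A-485. Of the 3 Oog1 relatives, which can share reads with it, Oog2 and Oog4 were called lower by both 2-cell stages in DMSO, Oog4 from 292.9 and 255.4 to 55.9 and 58.1 and then 19.4 and 16.6. Oog3, at 965.9 and 914.6 in zygotes, rose to 1624 and 1714 (0.81, but -0.52 with mitochondrial mRNA held constant) and was 847.2 and 984.1 at late 2-cell. Neither drug gave a call for the Oog1 relatives at the late stage, and A-485 gave none in any of the 5 lists at the zygote and early 2-cell stages. Of all genes, A-485 gave calls for 0.0657% lower and 0.00548% higher in zygotes, and 7.9% lower and 0.402% higher at early 2-cell.

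Open chromatin was read from the authors' ATAC-seq peak lists, 1 list for each combination and made from both replicates together. A peak was counted at a gene when it lay within 1000 bp of a start site. Gdf9 had one in late 1-cell DMSO (chr11:53430564-53431338, 6.80-fold enriched over the local background), late 1-cell A-485 (5.91-fold) and early 2-cell DMSO (7.70-fold) embryos, and none in early 2-cell A-485 embryos, where the nearest lay 106.0 kb away. The same peaks cover the start of Uqcrq on the opposite strand, 192 bp away, so they cannot be given to Gdf9 alone. Figla had a peak in late 1-cell DMSO embryos (chr6:86016620-86017474, 4.61-fold). Oosp1 had one in early 2-cell DMSO embryos (chr19:11690441-11691136, 8.93-fold), which lies partly in the printed Oosp1 window. Mos had one in early 2-cell A-485 embryos (chr4:3870786-3871803, 5.81-fold), inside its single exon and 302 bp from its start.

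Members with a peak numbered 2, 1, 2 and 1 of 10 at late 1-cell without and with A-485 and at early 2-cell without and with A-485. Of 21328 protein-coding genes 26.28%, 24.79%, 31.86% and 40.96% had one, and of the 6852 with at least 5 FPKM in zygotes 47.8%, 46.95%, 59.84% and 70.5%. Zp3 had none within 1000 bp, and its nearest in early 2-cell DMSO embryos was 2056 bp from the nearest start site (chr5:135982224-135982692, 4.87-fold), inside the gene. Zp1, Zp2, H1foo, Oog1 and Astl had no peak within 1000 bp in any list. The lists are pooled over replicates and differ in size, from 7094 to 27693 peaks, so no test was possible, and late 2-cell embryos were not among them.

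Across the 8 groups, the members' own profiles were unequally alike. Over group means of log2(FPKM + 1), the correlation of each gene with the mean of the other 9 was 0.995 for Gdf9, 0.988 for Zp2, 0.954 for Astl, 0.904 to 0.798 for Mos, H1foo, Figla and Zp1, and 0.646, 0.625 and 0.552 for Oog1, Zp3 and Oosp1. The protein-coding genes most like the mean of the members, among 7624 compared, were Cept1 (r = 0.9994), Ninj2 (0.9984), Dmac1 (0.9959), Fbxw21 (0.9951) and Adgra3 (0.9936). Cept1 measured 44.8 FPKM in DMSO zygotes, 18.7 at early 2-cell, 11.2 at late 2-cell and 18.3 after late A-485. Such likeness was common, with 997 genes at 0.9 or more, and the points share libraries and their stage order, so it is a description over 8 groups. These profiles are in FPKM and so carry the differing effective lengths, that of Figla most of all.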

How the data were processed

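Total RNA of mouse embryos was sequenced by the authors from random-primed, stranded, rRNA-depleted libraries. Reads were trimmed with Trimmomatic 0.39, aligned to GRCm38 with STAR 2.7.8a and quantified with RSEM 1.3.1, per the study's methods and the submitters' processing notes. The deposited files give, per gene, an expected count (RSEM's estimate, split between similar loci), its posterior SD, an effective length and FPKM. Expected counts were rounded here and genes with a summed count of at least 10 were tested with edgeR 4.0.16 (quasi-likelihood F test, TMM scaling, Benjamini-Hochberg over all genes tested, R 4.3.3), fitting the groups compared. Genes were called at an adjusted p below 0.05 with at least a 2-fold change and 1 FPKM on average in either group. No FPKM minimum was set for a difference between 2 effects. The scaled CPM of single libraries come from 1 TMM scaling of all 16. DESeq2 1.42.0, which the authors used in version 1.32.0, library totals, mitochondrial scaling, other filters, a replicate block and left-out libraries were alternatives. Depth was 13206163 to 32585987 counts a library, and the steps were tested on simulated data, where 46.3% to 49.3% of genes changed 2-fold and at least 98.5% of those changed 4-fold or 8-fold were recovered in the 3 comparisons simulated. Recovery needed an estimated change of at least 2-fold, so a true 2-fold change lay on the threshold. The simulation used a single fixed dispersion and changed few genes, so it does not bear on the choice of scaling.

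Each deposited ATAC-seq peak list was made by the authors over both replicates and gives a fold enrichment per peak. The genome build of the peaks is not given in the methods paragraph on them, and the labels name GRCm38. Peak coordinates are printed 1-based. All columns of per-sample values in the files were used or described, and the CUT&RUN data were not analysed here.

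The members and all lists were chosen with earlier results of these data known. The text names all 10 members, the 2 genes with the highest zygote level of each of 5 companion lists, genes called in those lists, and the 5 protein-coding genes most like the members, among genes with at least 10 FPKM in a group. Python 3.11.15, pandas 2.3.3, numpy 2.4.6 and matplotlib 3.10.9 were used for tables and plots.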

Additional observations from a re-analysis of the deposited data

Results flagged for a closer look

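The effect of A-485 on H1foo, the oocyte linker histone, differed between early 2-cell embryos and zygotes by -0.39 on the log2 scale (SE 0.11, edgeR adjusted p = 0.0356), being -0.21 at the early 2-cell stage and 0.24 in zygotes. Over the other settings its adjusted p went from 0.00462 to 0.537, the highest with all 16 libraries in 1 fit, and it passed 0.05 in 2 of the 8 fits that left out 1 library. For Zp3, a zona protein, the effect differed between late 2-cell embryos and zygotes by -0.80 (SE 0.29, edgeR adjusted p = 0.0461), being -0.81 and 0.06. That adjusted p lay just under the limit of 0.05 and did not stay under it in every alternative fit. The Zp3 difference ranged from -0.96 to -0.66 without 1 library in turn. For Oosp1, a secreted oocyte protein, the same difference was 0.50 (SE 0.14, edgeR adjusted p = 0.00837), being 0.46 and 0.02, and it turned to -0.81 with mitochondrial mRNA held constant. The effect of TSA on Oosp1 at the late 2-cell stage differed from that of A-485 by -0.45 (SE 0.13, edgeR adjusted p = 0.0257), being -0.10 and 0.46, and it turned to 0.25 with mitochondrial mRNA held constant. The DMSO libraries of these 2 experiments differed for Oosp1 by -0.54. The effects at each stage come from fits of 4 libraries and the differences from fits of 8, each with its own TMM scaling, so a difference is not exactly that of the effects beside it. All 4 differences were singled out by their test, out of 40 made for the 10 genes, and none reached 2-fold. Groups of 2 libraries are too small to look for single libraries that stand apart.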

How the results depend on the processing

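Of 1790 alternative values for single members, 1713 kept their side of the threshold, 10 lost a call, 49 gained one and 18 reversed. A value counts as reversed when its sign changed and the first or the alternative fit had an adjusted p under 0.05. In all 101 changed sign, 41 of them with mitochondrial scaling, and most had an adjusted p of 0.05 or more before. With mitochondrial mRNA held constant the members called lower were 10 in DMSO and 10 in A-485 embryos from zygote to early 2-cell, 10 in each from zygote to late 2-cell, 6 from early to late 2-cell with A-485, 2 after late A-485 and 2 after TSA. On that scale the A-485 effect differed between late 2-cell embryos and zygotes for 6 members (lower) and between late and early 2-cell for 2 (lower), and that of TSA from that of A-485 for 1 (higher). It reversed Oosp1 and Oog1 from zygote to early 2-cell in DMSO (-1.12 and -1.25) and A-485 (-1.17 and -1.32), and Gdf9, Zp2, Oosp1 and Oog1 after late A-485 (-0.62, -0.74, -0.52 and -0.83), relative to zygotes (-1.19, -1.07, -0.81 and -1.05) and relative to early 2-cell (-0.69, -0.90, -0.77 and -0.98). After late A-485 on the TMM scale Gdf9 and Oosp1 had passed the adjusted p, whereas Zp2 and Oog1 had not. Zp1, Mos and Astl, which passed it on neither scale after late A-485, also turned negative (-0.29, -0.34 and -0.98). Oosp1 reversed for TSA against A-485 (0.25) and, with library totals, for TSA (0.26). The cause was not tested.

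With TSA 0 members were called lower with library totals or with all 16 libraries in 1 fit. After late A-485, 1 member (Figla) was called higher with all 16 libraries or with no filter on low counts. The DMSO libraries of the TSA experiment gave 2 members called lower from early to late 2-cell (Oosp1 at -1.42 beside H1foo). Without 1 library in turn, members called lower ranged from 4 to 6 from zygote to late 2-cell with A-485, 6 to 7 in DMSO, 1 to 2 from early to late 2-cell in DMSO (higher 0 to 1), 0 to 1 after late A-485 (higher 0 to 2) and 0 to 2 after TSA. For differences of effects the ranges were 0 to 1 lower and 0 to 2 higher for late 2-cell against zygote, 0 to 1 higher for late against early 2-cell, and 0 to 1 lower for TSA against A-485. Among the peaks above the median enrichment of each list 0, 0, 1 and 0 members had one, and a pseudocount of 0.1 kept 3 of the 5 most alike genes.

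Library numbers were not found to pair the samples (correlations of same-numbered libraries from -0.09 to 0.14, 2 pairs a comparison). With the replicate block 1 member (Figla) was called higher for the A-485 effect at late 2-cell against zygote, and the blocked fit changed 2 of 150 single values.

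Over all genes, mitochondrial scaling moved the calls lower and higher from 3002 and 2257 to 8196 and 1270 (DMSO zygote to early 2-cell), from 3993 and 3992 to 7750 and 2400 (DMSO zygote to late 2-cell), from 3103 and 1360 to 9491 and 289 (A-485 zygote to early 2-cell), from 4088 and 4415 to 10883 and 1834 (A-485 zygote to late 2-cell), from 1634 and 2915 to 6178 and 1506 (A-485 early to late 2-cell) from 3824 and 2406 to 6874 and 1177 (late A-485), from 2987 and 2312 to 7315 and 891 (A-485 effect, late 2-cell against zygote), from 1876 and 2109 to 5466 and 1094 (late against early 2-cell) and from 791 and 2925 to 387 and 5405 (TSA against A-485 effect). Calls were 966 lower with library totals (A-485 early to late 2-cell, 1634), 2648 higher with no FPKM minimum (A-485 zygote to early 2-cell, 1360), 137 and 161 higher with no filter and no FPKM minimum (early A-485, 84), 22 to 45 lower and 0 to 14 higher in zygotes with A-485 (12 and 1), and 56 to 90 lower and 378 to 426 higher between the DMSO sets (28 and 245). Counts of 2 to 17 limit what can be said of Figla in late 2-cell DMSO libraries.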
